A study of Drosophila melanogaster with 4 samples.

Results

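The Cpr genes of Drosophila melanogaster encode cuticular proteins, and their peak cover by H3K27me3 and H3K27ac was described in sorted neuroblast nuclei with and without knockdown of the transcription factor Cut. Members were the protein-coding genes on X, on 4 and on either arm of chromosomes 2 and 3 whose symbol is Cpr followed by a digit. The rule found 70 of 13922 protein-coding genes, 35 on 3L, 21 on 2R, 5 each on 2L and 3R, 4 on X and none on 4. Cpr without a digit, which encodes cytochrome P450 reductase, is not among them. For each gene the dm6 span and 500 bp on either side were taken as its window, and a gene was called marked in a library when a peak overlapped its window by at least 1 bp. The rule uses symbols alone and no measured value.

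Most Cpr proteins carry the Rebers-Riddiford consensus, a stretch that binds chitin, and with chitin fibres they form the layers of the insect exoskeleton. They are secreted by epidermal and other ectodermal cells that lay down cuticle late in embryogenesis and at each moult, and different members are used at different stages and body sites. The number and first letter in a symbol give the cytological band, and the letters that follow tell apart the members of a band, as in Cpr65Au to Cpr65Az. H3K27me3 is the repressive mark written by E(z) in Polycomb repressive complex 2, and H3K27ac marks active promoters and enhancers. The same lysine cannot carry both.

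The study held 4 libraries, 1 for each mark in Cut_KD and in Control embryos. Cut_KD stands for RNAi against Cut, per the series' design text, and the labels give neither the RNAi line and its driver nor the control construct. Both genotypes carried wor-gal4 and UAS-dsRed, and wor-gal4 is active in the nervous system from stage 11, per the labels. Egg collections ran 16 h at 25 °C. The sorted nuclei made up 0.5 to 3% of embryonic nuclei and were at least 50% dsRed-positive under the microscope, so cells of other types may be present. The files hold no expression values, so the loss of Cut itself could not be checked. The cut gene ct (X:7608428-7678859) had 5.55 kb of H3K27me3 in Cut_KD and 2.49 kb in Control, and 2.42 and 1.01 kb of H3K27ac, which says nothing of the knockdown. With 1 library per mark and genotype no difference has a replicate check, no test between genotypes was possible and no p-value is given.

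Depth is unknown, since the files hold peaks and no reads, and the lists differ in length. The H3K27me3 lists held 18692 peaks over 19.5 Mb in Cut_KD and 4238 peaks over 4.68 Mb in Control, and the H3K27ac lists 25519 peaks over 14.8 Mb and 25941 over 22.2 Mb. List length moves with each difference between genotypes below, and its part in them was not tested beyond the trimmed lists described with the mean cover. Of 20 neuroblast genes, an H3K27ac peak lay at 17 in Cut_KD (85.0%; 76.9% of all genes) and 16 in Control (80.0%; 80.1% of all genes). The neuroblast factor wor had 1.63 kb of H3K27ac in Cut_KD and 1.85 kb in Control, mira 2.40 and 1.15 kb, and ase 0.472 kb and none. Markers of other cells carried the mark as well, at 11 and 13 of 15 muscle genes, 9 and 10 of 10 glial genes, and 15 of 15 epidermal and tracheal genes in both. These shares ran from 73.3 to 100% in Cut_KD and from 86.7 to 100% in Control. Median spans ran from 3450 bp (neuroblast) to 19500 bp (epidermal and tracheal), so these shares cannot be set against each other. In Cut_KD mean H3K27ac cover was 21.4% at neuroblast genes, 12.3% at muscle, 16.0% at glial and 14.6% at epidermal and tracheal genes. In Control it was 20.8, 16.4, 26.7 and 20.8%. H3K27ac peaks were thus not limited to neuroblast genes, and the cell types among the sorted nuclei were not tested.

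H3K27me3 lay at more Cpr genes in the knockdown list. In Cut_KD 40 of 70 members were marked (57.1%, 95% exact Clopper-Pearson interval 44.7 to 68.9%), against 68.1% of all genes. In Control 11 were marked (15.7%, 8.11 to 26.4%), against 12.2% of all genes. The intervals cover counting error only, and neighbours that share a peak are not independent. The Cpr genes are short, with a median span of 1090 bp against 2160 bp for all genes. Among the 9413 genes of 605 to 4739 bp, the 10th to 90th percentile of the members' spans, 62.5% were marked in Cut_KD and 6.34% in Control. The interval of the Cpr genes thus held the share of genes of like span in Cut_KD and lay above it in Control. Without the 7 neighbouring genes Cpr47Ea to Cpr47Eg, 7 of 63 members were marked in Control (11.1%, 4.59 to 21.6%), an interval that holds the share of genes of like span. This set was chosen after seeing the data. With 1 gene per cluster and all lone genes the Control share was 20.6% (8.70 to 37.9%), and without the cluster from Cpr65Au to Cpr65Az it was 15.9% (7.88 to 27.3%), both intervals lying above the share of genes of like span.

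**Figure D1:**
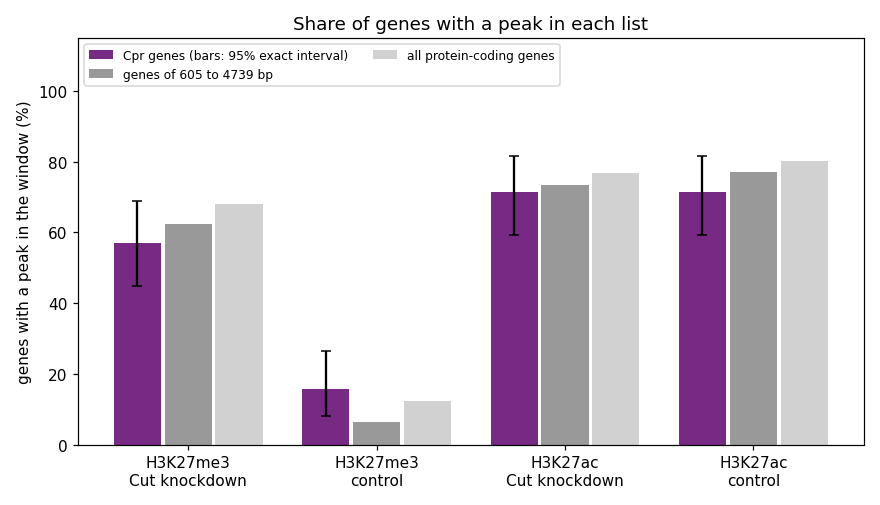
Share of genes (%) with a peak in the window in each of the 4 libraries, for the 70 Cpr genes, for the 9413 genes of like span and for all 13922 protein-coding genes. Vertical lines are 95% exact Clopper-Pearson intervals of the Cpr shares, for example 44.7 to 68.9% for H3K27me3 in Cut_KD and 8.11 to 26.4% in Control.

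The mean share of the Cpr window under H3K27me3 was 19.6% in Cut_KD and 3.63% in Control, a difference of 16.0 percentage points. Over all genes the means were 19.5 and 2.51%, a difference of 17.0 points. Cover was greater in Cut_KD at 37 members (66.0% of all genes) and greater in Control at 7 (3.09% of all genes). The difference of the means changed sign when the longer Cut_KD list was trimmed by its q values until it covered as many bases as the Control one. It was then -1.93 points for the Cpr genes and 0.695 points for all genes, with 3 members marked in Cut_KD (4.29%; 13.6% of all genes) and 11 in Control (15.7%; 12.2% of all genes). Trimming removes Cut_KD peaks only, so it can only lower this difference.

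The 8 members with the largest excess of H3K27me3 in Cut_KD had none in Control, where only 11 of all 70 members had any. Ranking by the difference also favours members without Control cover. Cpr50Ca (2R:13769915-13787802), whose span of 17.9 kb also holds S-Lap7, had 5.41 kb covered in Cut_KD and none in Control. Cpr76Bc (3L:19520945-19527272) had 2.48 kb in Cut_KD and none in Control. These 2 genes are longer than most members, and the mark covered 28.6 and 33.9% of their windows in Cut_KD. Cpr49Ah had 1.64 kb in Cut_KD and none in Control, in a peak that took in its whole span. Cpr72Ec had 1.63 kb in Cut_KD and none in Control. Cpr92A had 1.59 kb, Cpr66D 1.53 kb, Cpr72Ea 1.41 kb and Cpr62Bc 1.34 kb in Cut_KD, and none of the 4 had any in Control. In all, 33 members carried the mark in Cut_KD only (47.1%, 35.1 to 59.4%), against 57.3% of all genes and 57.6% of genes of like span.

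Cover within marked windows was partial. In Cut_KD it ran from 0.166 to 5.41 kb over the 40 marked members, with a median of 0.797 kb, and in Control from 0.160 to 0.975 kb over the 11, with a median of 0.704 kb. At least 50% of the gene body was covered in 16 members in Cut_KD (15.5% of all genes) and in 3 in Control (2.04% of all genes). Cpr49Ah and Cpr100A had 100% of the body covered in Cut_KD. Cpr30B, a lone member, had 84.1% of its body covered in Cut_KD and none in Control.

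Cpr100A (3R:30867521-30869184) was the member with the peak of highest fold in both lists. Its window carried 2.04 kb of H3K27me3 in Cut_KD and 0.971 kb in Control, and 0.884 kb of this was common to both. The Cut_KD peak (3R:30867504-30869538) had a fold enrichment of 2.25 and a -log10 q of 2.72, and the Control peak (3R:30867417-30868387) had 2.16 and 2.62. Peak folds and q values are the authors' deposited values throughout. By fold the Cut_KD peak ranked 1196 among 18692 and the Control peak 197 among 4238. H3K27ac at Cpr100A covered none of the window in Cut_KD and 0.547 kb in Control.

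H3K27me3 lay in both lists at 7 members (10.8% of all genes), and the 6 beside Cpr100A were Cpr47Ef, Cpr65Au, Cpr47Ea, Cpr50Cb, Cpr47Ec and Cpr30F. Cpr47Ec had 1.04 kb in Cut_KD and 0.675 kb in Control, but the peaks shared only 0.046 kb. Cpr47Ea had 0.984 kb in Cut_KD and 0.728 kb in Control, of which 0.030 kb was common. Cpr47Ef had 0.787 kb in Cut_KD and 0.975 kb in Control with no common base. Cpr65Au was covered less in Cut_KD, over 0.245 kb, than in Control, over 0.817 kb, and so was Cpr30F, over 0.205 kb in Cut_KD and 0.650 kb in Control. Cpr50Cb had 1.26 kb in Cut_KD and 0.704 kb in Control, of which 0.091 kb was common. At 4 of these 6 genes the peaks of the 2 lists thus lay almost wholly on different bases, whereas at Cpr65Au and Cpr30F 0.245 and 0.181 kb were common. The 0.245 kb in the Cpr65Au window lay outside that gene, on its neighbour Lcp65Ag3. Over the windows of the 70 genes, each base counted once, 20.5% of the Control H3K27me3 bases lay in Cut_KD peaks, or 9.54% without Cpr100A. The share was 51.4% over the windows of all genes and 54.9% over the 6 arms.

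H3K27me3 in Control only was found at 4 members (5.71%, 1.58 to 14.0%), against 1.34% of all genes and 1.44% of genes of like span. Cpr12A on X had no H3K27me3 in Cut_KD and 0.760 kb in Control, over 60.1% of its body. Cpr49Ae had none in Cut_KD and 0.541 kb in Control, Cpr73D none and 0.369 kb, and Cpr47Ee none and 0.160 kb. The Cpr47Ee stretch is the edge of the peak on its neighbour Cpr47Ef (2R:11267197-11268171), so 3 separate peaks account for these genes beside that edge. None of the 4 had a Control peak with a -log10 q of 2 or more.

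**Figure D2:**
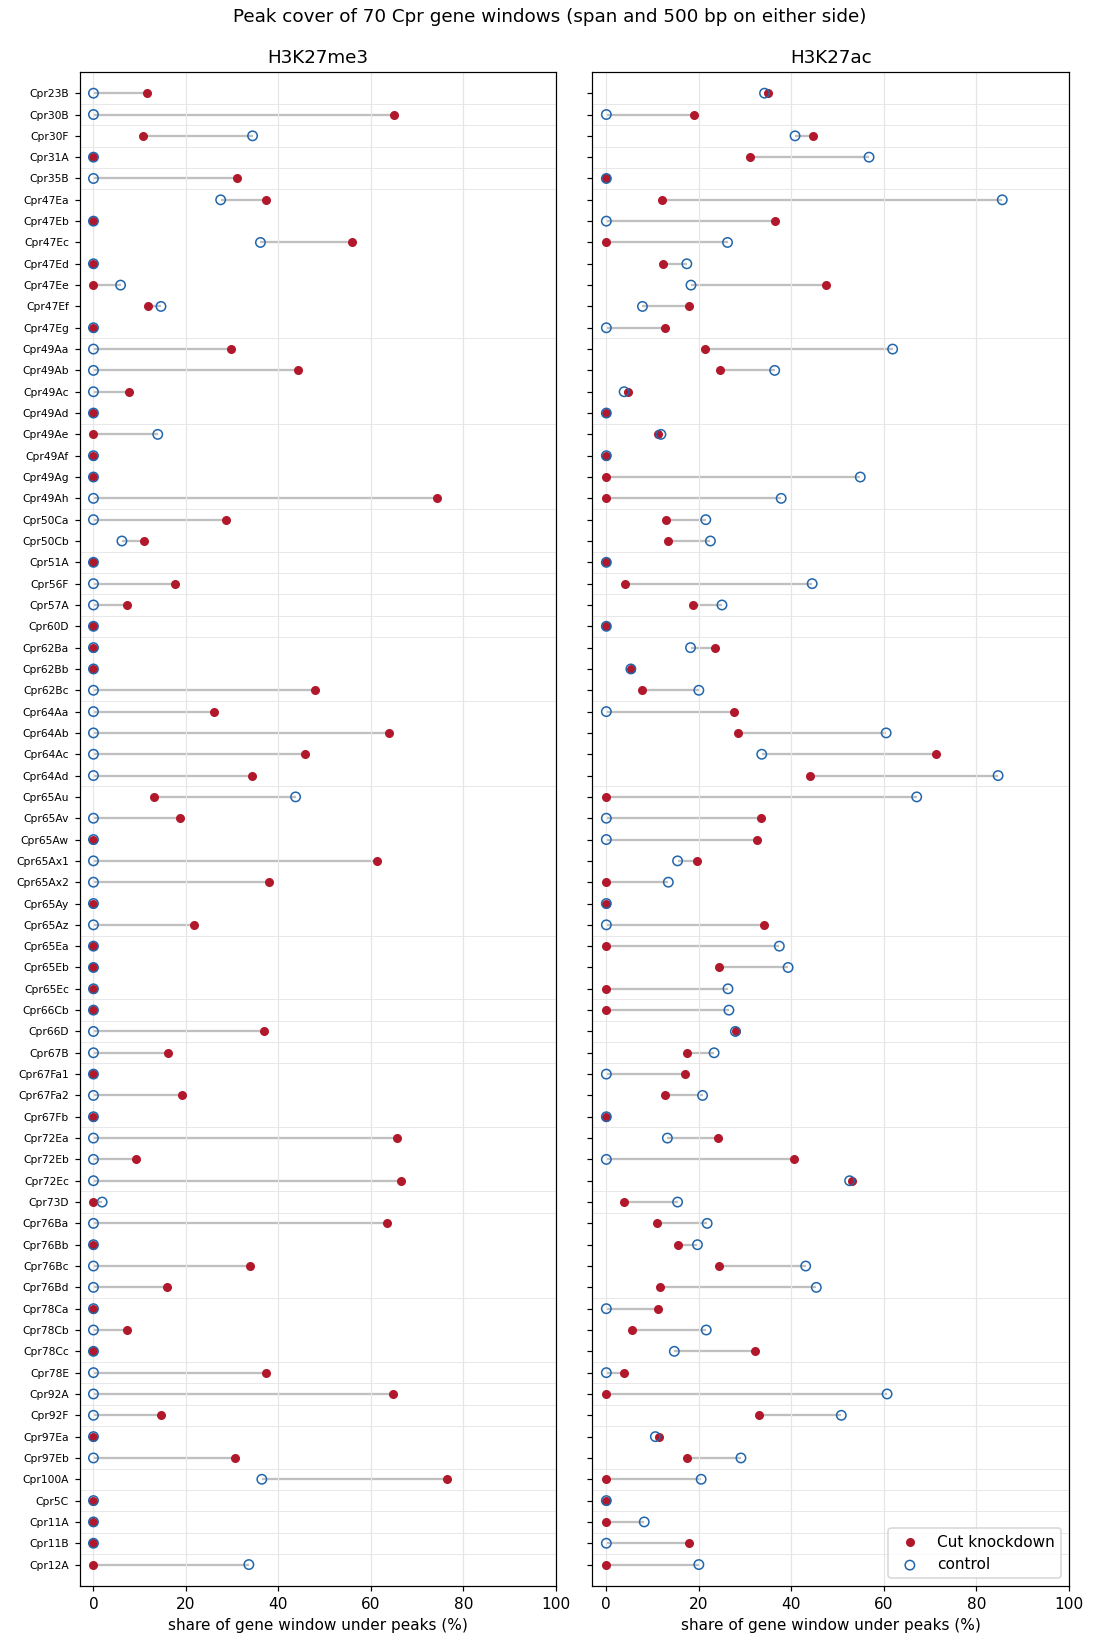
Share (%) of each Cpr gene window under H3K27me3 peaks (left) and H3K27ac peaks (right), filled red for Cut knockdown and open blue for Control, 1 library each. Genes run in order of arm and position, and thin lines separate clusters. For H3K27me3, 37 genes have the higher value in Cut knockdown and 7 in Control, and for H3K27ac 25 and 37.

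In the lists as deposited H3K27ac was found at as many Cpr genes in the knockdown as in the control, but not at the same ones, and the counts parted when the lists were trimmed. It lay at 50 of 70 members in Cut_KD (71.4%, 59.4 to 81.6%; 76.9% of all genes) and at 50 in Control (71.4%; 80.1% of all genes), where genes of like span had 73.5 and 77.1%. Of these, 38 were marked in both (54.3%, 41.9 to 66.3%; 69.7% of all genes), 12 in Cut_KD only (17.1%, 9.18 to 28.0%; 7.17% of all genes) and 12 in Control only (17.1%; 10.4% of all genes). Among genes of like span 64.5% were marked in both, 8.90% in Cut_KD only and 12.6% in Control only. The mean share of the window covered was 16.0% in Cut_KD and 22.5% in Control, a difference of -6.46 points, and over all genes 19.0 and 26.3%, a difference of -7.25 points. Cover was greater in Cut_KD at 25 members (28.0% of all genes) and greater in Control at 37 (59.1% of all genes). The Cpr difference turned to 4.95 points with the Control list trimmed to cover as many bases as the Cut_KD one, where that of all genes was 0.0343 points. Then 50 members were marked in Cut_KD (76.9% of all genes) and 28 in Control (63.4% of all genes). It turned to 8.82 points when peaks below a fold of 2 were dropped, where that of all genes was 6.36 points and 47 members were marked in Cut_KD (71.2% of all genes) and 17 in Control (43.7% of all genes). That bound was passed by 80.3% of Cut_KD and 32.6% of Control peaks.

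**Figure D3:**
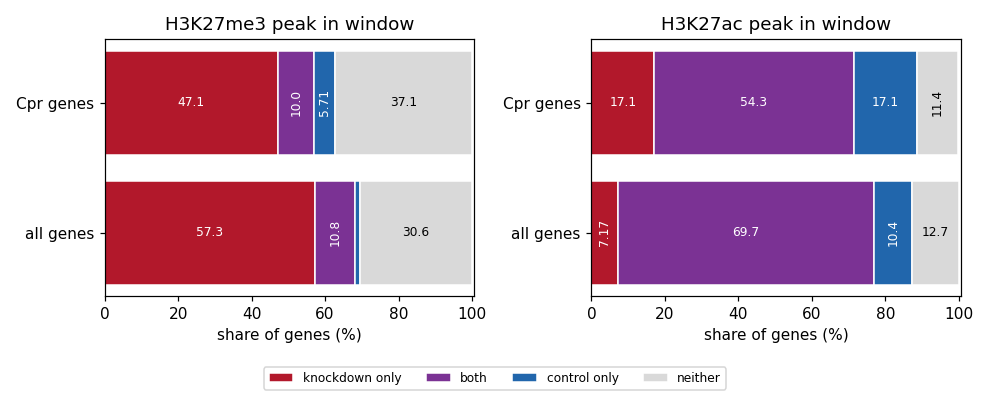
Share (%) of the 70 Cpr genes and of all 13922 genes with a peak in Cut knockdown only, in both genotypes, in Control only or in neither, for H3K27me3 (left) and H3K27ac (right). For H3K27ac 54.3% of Cpr genes and 69.7% of all genes carried a peak in both genotypes.

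The 8 members with the largest gain of H3K27ac in the knockdown all had another Cpr gene within 10 kb, as had 49 of all 70 members. They lay in the Cpr47E, Cpr64A, Cpr65A and Cpr72E clusters alone, so they are not independent cases. Cpr47Ee had 1.30 kb in Cut_KD and 0.499 kb in Control, and its neighbour Cpr47Ef 1.18 and 0.520 kb. Cpr64Ac had 1.39 kb in Cut_KD and 0.655 kb in Control. Cpr72Eb (0.732 kb), Cpr47Eb (0.663 kb), Cpr64Aa (0.646 kb), Cpr65Az (0.605 kb) and Cpr65Av (0.587 kb) were covered in Cut_KD and had none in Control. At Cpr64Ac the Cut_KD peak took in the whole gene.

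Of the 8 members with the largest loss of H3K27ac, 7 were longer than the median member, the exception being Cpr65Au. Loss was ranked in kb, and a longer window can lose more, so the ranking itself favours long genes. Cpr73D, whose span of 18590 bp is the longest of the family and holds Obp73a, had 0.766 kb in Cut_KD and 3.02 kb in Control. Cpr76Bd had 0.753 kb in Cut_KD and 2.97 kb in Control. Cpr47Ea had 0.317 kb in Cut_KD, all of it outside the gene, and 2.27 kb in Control, in a peak that covered the gene from end to end. Cpr56F had 0.183 kb in Cut_KD and 2.04 kb in Control. Cpr50Ca had 2.44 and 4.06 kb, Cpr92A none and 1.49 kb, Cpr76Bc 1.78 and 3.16 kb, and Cpr65Au none and 1.25 kb. Cpr92A, without H3K27ac in Cut_KD, had 1.59 kb of H3K27me3 there and none in Control. Cpr65Au, also without H3K27ac in Cut_KD, had less H3K27me3 there, 0.245 kb, than in Control, 0.817 kb. H3K27me3 in Cut_KD also lay at Cpr50Ca, Cpr76Bc, Cpr76Bd, Cpr56F and Cpr47Ea, whose windows kept H3K27ac peaks. Cpr50Ca held the member peak of highest fold in each H3K27ac list, at 2.69 in Cut_KD and 2.50 in Control, and these 2 peaks overlapped (2R:13776951-13777081 and 2R:13776920-13777112).

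Both marks were found in the window of 33 members in Cut_KD (47.1%; 60.7% of all genes) and of 11 in Control (15.7%; 10.9% of all genes). In Control each of the 11 members with H3K27me3 also had H3K27ac, so 0 of 70 had H3K27me3 alone, which allows a share of up to 5.13% by the exact interval, against 1.31% of all genes. In Cut_KD 7 of 70 members had H3K27me3 alone (7.36% of all genes). Cpr35B was the member with H3K27me3 in Cut_KD, over 0.581 kb, and no other peak in the 4 lists. By bases, 26.8% of the H3K27me3 in member windows also lay under H3K27ac in Cut_KD (35.8% over the windows of all genes), and 48.6% in Control (25.9% over the windows of all genes). The most frequent pattern was H3K27me3 in Cut_KD only with H3K27ac in both, at 23 members (32.9%; 48.3% of all genes). Whether both marks lay in the same nuclei cannot be told from peak lists, nor can a mark in fewer nuclei be told apart from less of it in each.

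Of the 47 H3K27me3 peaks at members in Cut_KD, 44 overlapped an H3K27ac peak of either genotype (93.6%; 84.2% of all peaks of that list). In Control 7 of 10 did (70.0%; 58.8% of the list). With such peaks left out, 3 members stayed marked in Cut_KD (4.29%; 10.7% of all genes) and 3 in Control (4.29%; 4.83% of all genes), and the difference of mean cover was -0.626 points (0.531 points for all genes). Such peaks make up most of the whole Cut_KD list, so leaving them out was bound to lower Cut_KD cover. The difference of all genes fell as well, from 17.0 to 0.531 points, so the fall is not particular to Cpr genes.

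Peaks at Cpr genes were close in strength to the median peak of their lists, apart from H3K27me3 in Control. The median -log10 q of H3K27me3 peaks at members was 1.59 in Cut_KD, against 1.64 in the whole list, and 1.22 in Control, against 1.55. For H3K27ac it was 1.48 in Cut_KD, against 1.51, and 1.49 in Control, against 1.60. The median fold of H3K27me3 peaks was 1.91 in Cut_KD, against 1.89, and 1.81 in Control, against 1.86, and that of H3K27ac peaks 2.13 in Cut_KD, against 2.13, and 1.89 in Control, against 1.93. Of the H3K27ac peaks at members 88.1% had a fold of at least 2 in Cut_KD and 24.7% in Control, against the 80.3 and 32.6% of the whole lists. The highest -log10 q at a member was 2.94 in Cut_KD and 2.62 in Control for H3K27me3, and 2.72 and 3.35 for H3K27ac. Peaks of -log10 q of at least 2 made up 17.0% of the Cut_KD H3K27me3 peaks at members, against 27.9% in the whole list, and 1 of 10 in Control, against 22.3%. For H3K27ac they made up 8.96% in Cut_KD, against 20.1%, and 16.4% in Control, against 19.9%. Median widths were 742 bp in Cut_KD and 716 bp in Control for H3K27me3, and 433 and 666 bp for H3K27ac, and the longest H3K27me3 peak at a member spanned 2470 bp, on Cpr50Ca.

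At that bound H3K27ac marked 6 members in Cut_KD (8.57%, 3.21 to 17.7%), against 37.2% of all genes and 33.7% of genes of like span. They were Cpr47Eg, Cpr50Ca, Cpr50Cb, Cpr62Bb, Cpr76Bc and Cpr78Cb. The peaks at Cpr47Eg and Cpr62Bb lay wholly beyond the gene, that at Cpr47Eg over CG9067. In Control 13 members were marked (18.6%, 10.3 to 29.7%), against 29.6% of all genes and 22.3% of genes of like span. At this bound on q, though not by fold, the Cut_KD interval lay below both backgrounds and the Control interval held both. H3K27me3 at that bound marked 8 members in Cut_KD (11.4%, 5.07 to 21.3%; 22.3% of all genes and 15.1% of genes of like span). Among them was Cpr56F, whose peak of fold 2.24 lay beyond its end. The peaks at Cpr65Ax2 (2.24) and Cpr50Cb (2.14) lay mostly beyond the gene, and the former also took in Lcp65Aa. In Control it marked Cpr100A alone (1.43%; 3.18% of all genes and 1.27% of genes of like span). By fold, peaks of at least 2 marked 8 members for H3K27me3 in Cut_KD (22.9% of all genes) and 1 in Control (2.31% of all genes). H3K27ac peaks of that fold marked 67.1% of members in Cut_KD (54.9 to 77.9%; 71.2% of all genes and 67.4% of genes of like span). In Control they marked 24.3% (14.8 to 36.0%; 43.7% of all genes and 36.5% of genes of like span). By fold the Control interval thus lay below both backgrounds and the Cut_KD interval held both, the reverse of the bound on q.

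Many Cpr genes lie close to each other, and 49 of the 70 fell into 13 clusters, defined as 2 or more members with at most 10 kb between neighbours. The clusters spanned 4.70 to 35.3 kb, and 6 of them held at least 4 members. H3K27me3 lay at 28 of 49 clustered and 12 of 21 lone members in Cut_KD (57.1% each), and at 7 (14.3%) and 4 (19.0%) in Control. H3K27ac lay at 77.6% of clustered and 57.1% of lone members in Cut_KD and at 73.5 and 66.7% in Control. Of all genes, H3K27me3 marked 68.1% in Cut_KD and 12.2% in Control, and H3K27ac 76.9 and 80.1%. Few peaks joined neighbours, since 2 of the 47 H3K27me3 peaks in Cut_KD, 1 of 10 in Control, 3 of 67 H3K27ac peaks in Cut_KD and 2 of 73 in Control touched 2 members, and none touched more. In Cut_KD 12 of the 13 clusters had at least 1 member under H3K27me3, and 3 had each member under it. In Control 4 clusters had at least 1, and none had each.

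The Cpr64A cluster (3L:4207838-4216414, 8.58 kb), which lies within the span of CG43367, had each of its 4 members under H3K27me3 in Cut_KD. The mark covered 28.0% of the cluster and its 500 bp flanks in Cut_KD and none in Control, and H3K27ac 35.0 and 34.5%. Cpr64Ab had 1.06 kb and Cpr64Ac 0.892 kb in Cut_KD from a peak that joins them, Cpr64Ad 0.697 kb and Cpr64Aa 0.609 kb. The Cpr72E cluster (3L:16362603-16367340, 4.74 kb) was the most covered of the 13, with 53.0% under H3K27me3 in Cut_KD and none in Control, and 31.7 and 27.3% under H3K27ac. There Cpr72Eb received 0.166 kb, all of it beyond its own end, from the peak over Cpr72Ec.

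The Cpr65A cluster (3L:6131242-6161589, 30.3 kb) holds 7 Cpr genes and 11 others, among them 9 Lcp65A larval cuticle genes and Acp65Aa. H3K27me3 covered 13.4% of it in Cut_KD and 2.61% in Control, at 5 and 1 of the 7 members. The Control cover came from the peak 3L:6130555-6131558, which lay over part of Lcp65Ag3 and over 0.317 kb of the Cpr65Au body. H3K27ac lay at 4 members in Cut_KD and 3 in Control, with 11.3 and 10.7% of the cluster covered. Cpr65Av, Cpr65Aw and Cpr65Az had H3K27ac in Cut_KD only, Cpr65Au and Cpr65Ax2 in Control only, and Cpr65Ay had no peak. Cpr65Ax1 and Cpr65Ax2 are duplicated copies, as are several of the Lcp65A genes, and how the authors placed reads that match more than 1 copy is not given in the sources used here, so the values of the 2 copies are uncertain.

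The Cpr47E cluster (2R:11251751-11278445, 26.7 kb), with 7 members and 2 other genes, had 3 members under H3K27me3 in Cut_KD and 4 in Control, the most of any cluster in Control. Its cover was 19.1% in Cut_KD and 9.99% in Control, and that of H3K27ac 15.5 and 23.3%. Part of the Cut_KD H3K27me3 cover lay outside the member windows, in peaks over the other genes TpnC47D and CG13223. Without the 7 Cpr genes of this cluster 58.7% of members were marked by H3K27me3 in Cut_KD and 11.1% in Control. Control H3K27me3 covered 0.704 kb of the Cpr50C cluster, 0.541 kb of the cluster from Cpr49Ae to Cpr49Ah, and none of 9 clusters. The cluster from Cpr49Aa to Cpr49Ad had 15.0% of its length under H3K27me3 in Cut_KD and none in Control, and 6.61 and 23.8% under H3K27ac. The Cpr76B cluster, from Cpr76Ba to Cpr76Bd, had 21.7% and none, and 13.8 and 34.9%. At Cpr65E, the cluster without H3K27me3 in either list, H3K27ac covered 5.72% in Cut_KD and 28.5% in Control.

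**Figure D4:**
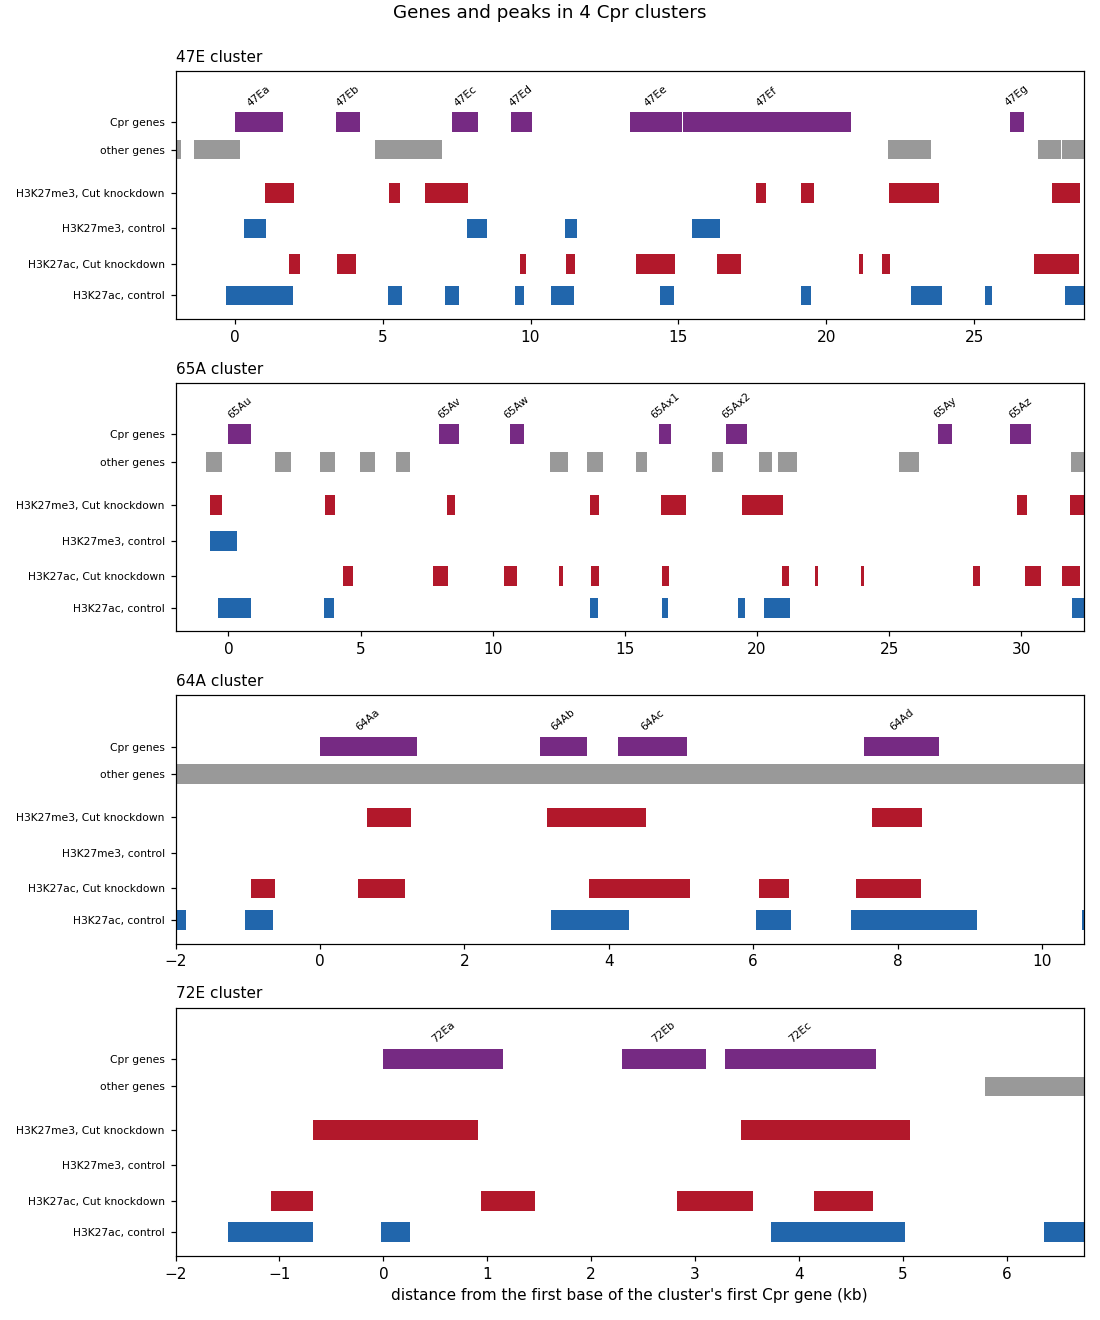
Maps of 4 clusters, with Cpr genes, other protein-coding genes and the peaks of the 4 libraries against distance (kb) from the first base of the cluster's first Cpr gene. The Cpr47E and Cpr65A maps show short separate peaks, and the Cpr64A and Cpr72E maps show H3K27me3 peaks in Cut knockdown and none in Control.

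Around the midpoint of Cpr genes the mean cover by H3K27me3 in Cut_KD and by H3K27ac in both genotypes was higher than in the flanks. In the 250 bp bin just past the midpoint, by coordinate, H3K27me3 averaged 33.6% in Cut_KD and 5.41% in Control, and H3K27ac 31.7 and 42.0%. For genes of like span these values were 25.6 and 2.14%, and 28.3 and 36.2%. In the 10 kb beyond the window on each side H3K27me3 averaged 15.8% in Cut_KD and 2.36% in Control, against 17.8 and 2.57% around all genes. H3K27ac there averaged 12.6% in Cut_KD and 20.3% in Control, against 16.9 and 23.8%. Control H3K27me3 was 0.0% in the bin at 875 bp and 5.26 to 5.99% in the 3 bins from 4125 to 4625 bp, so its value just past the midpoint was no higher than in some bins away from the gene. Of the cover in marked windows, 77.2% in Cut_KD and 84.2% in Control lay within the gene body for H3K27me3, and 85.1 and 85.6% for H3K27ac. Bodies make up 68.9% of all member windows, marked or not. Longer members were marked more often in each list, so that share is not the one to expect of marked windows.

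**Figure D5:**
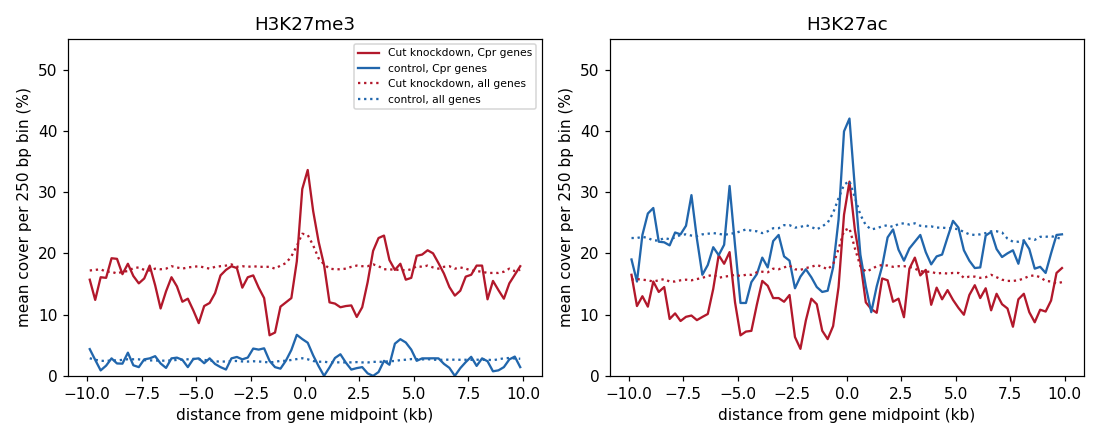
Mean cover (%) in 250 bp bins from 10 kb before to 10 kb after the gene midpoint, without regard to strand, for H3K27me3 (left) and H3K27ac (right). Solid lines are the 70 Cpr genes and dotted lines all genes, red for Cut knockdown and blue for Control. Cpr genes reach 33.6% H3K27me3 in Cut knockdown just past the midpoint, and all genes 23.0%.

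Counts by arm were small and were not tested. None of the 4 Cpr genes on X had H3K27me3 in Cut_KD, against 61.4% of all genes on X, and 1 had it in Control, against 6.92%. On 3L 21 of 35 members were marked in Cut_KD (69.0% of all genes there) and 2 in Control (5.71%; 11.8%). On 2R 11 of 21 were marked in Cut_KD (52.4%; 70.0% of all genes there) and 6 in Control (28.6%; 11.3%), 4 of them in the Cpr47E cluster. Of the 35 members above the median span, 22 carried H3K27me3 in Cut_KD (62.9%) and 8 in Control (22.9%). Of the 35 others 18 (51.4%) and 3 (8.57%) did, against 68.1 and 12.2% of all genes. H3K27ac in Control lay at 31 of the longer (88.6%) and 19 of the shorter (54.3%), against 80.1% of all genes. A window of a member held part of another protein-coding gene in 32 cases. Of the other 38 members 18 were under H3K27me3 in Cut_KD (47.4%, against 68.1% of all genes) and 5 in Control (13.2%, against 12.2%). Peaks of a neighbouring gene can thus enter a Cpr window, and the 2 were not separated.

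A peak in none of the 4 lists was the pattern of 7 of 70 members (10.2% of all genes). They were Cpr49Ad, Cpr49Af, Cpr51A, Cpr60D, Cpr65Ay, Cpr67Fb and Cpr5C. Absence from a list says that the authors' threshold was not met. At the other end, Cpr30F, Cpr47Ea, Cpr47Ef and Cpr50Cb had peaks in each of the 4 lists (5.71%; 9.27% of all genes).

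Other genes of cuticle formation were read in the same way, against 68.1 and 12.2% of all genes under H3K27me3 in Cut_KD and Control. Of 59 genes of other cuticular protein families, namely the Lcp, Ccp84A, Acp, Edg, Tweedle and Vajk genes, resilin, Pcp and Crys, 39 carried H3K27me3 in Cut_KD (66.1%) and 6 in Control (10.2%). H3K27ac lay at 35 in Cut_KD (59.3%; 76.9% of all genes) and 40 in Control (67.8%; 80.1% of all genes). These genes are short, with a median span of 976 bp against 1090 bp for the Cpr genes. Among genes of like span to the Cpr genes, H3K27me3 marked 62.5% in Cut_KD and 6.34% in Control, and H3K27ac 73.5 and 77.1%. The Control H3K27me3 share of 10.2% thus lay below that of all genes and above that of genes of like span. No interval was computed for it. TwdlC had 1.88 kb of H3K27me3 in Cut_KD and none in Control, Vajk4 1.80 kb and none, Vajk1 1.68 kb and none, and Ccp84Ab 1.49 kb and none. The 38 genes of chitin synthesis and organisation were marked by H3K27me3 at 26 in Cut_KD and 3 in Control. Among them the chitin synthase gene kkv had 3.67 kb in Cut_KD and none in Control, exp, which acts in chitin deposition, 4.14 kb and none, and verm, a chitin deacetylase gene, 3.63 kb and none. Of 11 genes of cuticle hardening and pigment, 7 and 1 were marked, with ple, which encodes tyrosine hydroxylase, at 0.870 kb in Cut_KD and none in Control. The 1 gene of that list marked in Control was Hn, which encodes phenylalanine hydroxylase, with none in Cut_KD and 0.873 kb in Control. Of 12 genes of the apical matrix, 12 and 3 were marked, among them pio at 5.63 kb in Cut_KD and none in Control. Their median span was 10000 bp, against 2160 bp for all genes, so these marked shares cannot be set against those of all genes. Their mean cover was 15.6% of the window in Cut_KD and 1.19% in Control, against 19.5 and 2.51% over all genes.

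Genes of hormone response and epidermal fate, which act upstream of cuticle formation, are longer. Of 21 genes of the moulting hormone response, H3K27me3 marked 19 in Cut_KD and 11 in Control, with mean cover of 18.6 and 2.14% of the window. The ecdysone-induced factor genes Eip74EF had 9.09 kb in Cut_KD and none in Control, and br 14.7 and 2.72 kb. Of 15 epidermal and tracheal genes, 15 were marked in Cut_KD and 8 in Control, with mean cover of 39.2 and 12.2%. Among these, grh, a regulator of epidermal barrier genes that also acts in neuroblasts, had 17.7 kb in Cut_KD and 3.89 kb in Control. The median span of that list was 19500 bp, so its share of marked genes cannot be set against that of the short Cpr genes.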

How the data were processed

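Per the labels' protocols, nuclei were fixed, sorted and digested with 15 U of micrococcal nuclease, with input DNA as background. Both antibodies carry the same catalogue number in the labels, which may be an error. FastQC, Bowtie2, MACS2, SICER and dm6 are named, per the submitters' processing notes, with version, role and threshold of each not given in the sources used here. The deposited broad peak lists, 1 per library, hold a score, a fold enrichment (ratio), a -log10 p and a -log10 q for each peak, made by the authors. The lowest -log10 q was 1.01 in each list. Depth is unknown, so no precision from it can be given.

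Overlapping peaks were merged, and cover was computed with Python 3.11.15 (NumPy 2.4.6, pandas 2.3.3) by a function tested on simulated data, with exact intervals from SciPy 1.17.1. Alternatives were stricter peaks, equal covered lengths, other windows and sets of members. Gene spans came from a RefSeq table of the same assembly, which gives no strand, exon or sequence. Starts are given 1-based. Peaks off the 6 arms were left out. Of 252 list symbols 233 matched. The members and lists were chosen with earlier results of these data known. Named genes were the 8 members with the largest gain and loss of each mark in kb, those with H3K27me3 in both lists, the 4 of highest fold in each list, the ends of clusters of 4 or more, up to 6 without peaks, and up to 4 genes of each other list by H3K27me3 difference. Further members were named after their values were seen.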

Additional observations from a re-analysis of the deposited data

How the results depend on the processing

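No paired analysis was possible because each mark and genotype had 1 library and the result comes from no test. Of 68 alternative values, 44 stayed within 1.5 times the reported value with the same sign, 20 moved by more and 4 changed sign. Keeping peaks from a -log10 q of 2 up, H3K27me3 marked 11.4% of members in Cut_KD and 1.43% in Control and the mean cover differed by 2.57 points, and H3K27ac marked 8.57 and 18.6% with a difference of -2.97 points. Keeping peaks from a fold of 2 up, H3K27me3 marked 11.4 and 1.43% with a difference of 3.22 points, and H3K27ac in Control marked 24.3%, with the difference reversed to 8.82 points. At the same covered length, H3K27me3 in Cut_KD marked 4.29% and the difference reversed to -1.93 points, and H3K27ac in Control marked 40.0% and the difference reversed to 4.95 points. With at least 50% of the window covered, H3K27me3 marked 14.3% in Cut_KD and 0.0% in Control, and H3K27ac 2.86 and 14.3%. Without H3K27me3 peaks that overlap H3K27ac, 4.29% were marked in each genotype and the difference reversed to -0.626 points. The H3K27ac difference was -10.7 points with 1 gene per cluster and -3.32 points over members with no other gene in the window, a set chosen after seeing the data, as was leaving out the Cpr47E cluster. A stricter list or trimming removes peaks by construction. Beyond that the cause was not tested. The 13 clusters became 15 with a gap of 5 kb, 12 with 20 kb and 16 when no other gene may lie between. Unknown depth limits every covered length.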
